A study of Mus musculus with 108 samples.

Results

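The 10 genes described here encode chaperones and folding enzymes of the endoplasmic reticulum (Hspa5, Hsp90b1, Calr, Canx, Pdia3 and Pdia4) and regulators of the unfolded protein response (Xbp1, Atf4, Atf6 and Ddit3), in mouse oocytes with and without Exosc10, a 3′-to-5′ exoribonuclease of the nuclear RNA exosome. They are 10 of 55573 gene IDs counted in each library, and all 10 passed the filter on low counts in both library types. They were chosen by symbol, with their measured differences between genotypes and stages in these libraries already known, so the comparisons below describe these genes and are no independent support for a response. The symbol Ddit3 belongs to 2 gene IDs. ENSMUSG00000025408 was used, and ENSMUSG00000116429, a small locus that overlaps it, is given separately.

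In the endoplasmic reticulum, newly made secretory and membrane proteins fold with the help of the HSP70 chaperone BiP (Hspa5), the HSP90 chaperone GRP94 (Hsp90b1), the lectins calreticulin and calnexin, and protein disulfide isomerases. When unfolded proteins build up, the sensors ATF6, IRE1 and PERK start transcriptional programmes: cleaved ATF6 and spliced XBP1 act on chaperone promoters, and ATF4, whose translation rises when eIF2α is phosphorylated, acts on Ddit3 (CHOP) among others. Oocytes make and export much protein for the zona pellucida while they grow. Fully grown oocytes then stop transcribing, and meiotic maturation proceeds on stored mRNA whose poly(A) tails are lengthened or shortened.

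Each library came from a single oocyte. Oocytes were at the germinal vesicle stage (GV), at GV plus 3 h of culture in M2 medium, or at metaphase II (MII, eggs taken from oviducts), and came from control females or from females whose oocytes alone lacked Exosc10 (conditional knockout, cKO). The Cre driver, the controls' alleles, the strain and the age are not given in the sources used here. In the polyA libraries, selected with oligo-dT beads, GV held 15 cKO oocytes of 2 females and 7 control oocytes of 2 females, GV plus 3 h held 11 of 3 and 8 of 3, and MII held 15 of 3 and 8 of 3. In the RiboMinus libraries, primed with random hexamers and made without poly(A) selection, GV held 7 cKO oocytes of 2 females and 8 control oocytes of 2 females, and MII held 4 of 2 and 3 of 1. A polyA level counts transcripts that oligo-dT can hold, so fewer molecules and shorter tails cannot be told apart in it.

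Genotype and stage do not vary within a female, so counts were summed over the oocytes of each female and the female was the replicate. Nothing in the labels says which females were littermates or were processed together. Levels are CPM, counts scaled to a common library size with TMM factors. A difference was called where edgeR's two-sided quasi-likelihood test gave an adjusted p under 0.05, with Benjamini-Hochberg adjustment over all genes tested in that library type. The RiboMinus MII control is 1 female (V1145), which the fit assumes to vary like the others, and female and group cannot be told apart there. Gene counts ranged from 4638718 to 8735914 per polyA oocyte and from 12319658 to 62675760 per RiboMinus oocyte. Spike-in lines numbered 0 in the count files, so every change is relative to the rest of a library.

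Exosc10 itself lay between 46.0 and 144.4 CPM in control females and between 0.0799 and 3.71 CPM in cKO females, and was lower in all 5 genotype comparisons, by log2 values from -5.34 to -7.49. All 10 oocyte markers had counts in each group, with summed levels of 5681 to 28440 CPM per oocyte. At polyA MII these sums were 23660 to 28440 CPM in cKO oocytes (median 25260) and 16940 to 21560 in control oocytes (median 19650), without overlap. They overlapped at GV plus 3 h, at 17230 to 22310 CPM in cKO (median 20020) and 15830 to 18060 in control (median 16290). The 12 markers of granulosa and cumulus cells summed to 68.9 to 199.2 CPM, with Nr5a2 or Cyp19a1 the highest and 1 to 4 of them without a count in a group, most often Ptx3 and Tnfaip6. In MII polyA oocytes their median sum was 118.5 CPM in cKO and 132.1 in control. The part of these marker differences in the results was not tested. When plain library totals replaced the TMM factors, the median log2 difference of all genes between genotypes went from 0.08 to 0.27 at polyA GV and from 0.07 to 0.29 at GV plus 3 h, and that of MII against GV in controls from -0.26 to -0.69. The share of calls that were higher moved with it, from 47.0% to 74.2%, from 49.5% to 70.5% and from 39.5% to 21.4%. The same share went from 40.5% to 20% for MII against GV in cKO, where the median moved from -0.33 to -0.86, and from 49.5% to 65.9% for the RiboMinus MII genotypes, where it moved from 0.25 to 0.45.

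Promoter sequence gives a first view of how the chaperone genes are alike. Cleaved ATF6 and XBP1 are known to act through the ER stress response element, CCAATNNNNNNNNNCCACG, which was searched on both strands in the RefSeq promoters (GRCm38.p6, 250 bases before to 50 after the start). It lay in 39 of 32851 promoters (0.119%). Promoters were found for 9 of the 10 genes, and 4 of these held the element, Hsp90b1 2 times. The stretches are shown because all 4 genes encode chaperones. The element was in none of the other 5 windows, and Pdia3, Atf4 and Ddit3 among these were called at polyA MII like Hspa5, Hsp90b1 and Calr, so holding it did not separate the genes called there from the rest. Each runs 5′ to 3′ on the gene's own strand, with the CCAAT and CCACG boxes, or their reverse complements, in capitals and 20 bases on either side.
Hspa5, chr2:34772005-34772063, plus strand: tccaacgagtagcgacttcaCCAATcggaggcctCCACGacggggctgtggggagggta
Hsp90b1, chr10:86705513-86705676, minus strand: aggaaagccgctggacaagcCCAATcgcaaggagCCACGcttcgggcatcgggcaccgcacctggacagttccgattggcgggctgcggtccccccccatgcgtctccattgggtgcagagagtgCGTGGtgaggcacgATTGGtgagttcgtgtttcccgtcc
Calr, chr8:84847055-84847113, minus strand: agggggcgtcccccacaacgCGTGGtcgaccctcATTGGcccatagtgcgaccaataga
Canx, chr11:50325780-50325838, minus strand: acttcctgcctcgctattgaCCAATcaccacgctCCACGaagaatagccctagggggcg

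The element began 65 bases before the start in Hspa5, 212 and 107 bases before it in Hsp90b1, 162 in Calr and 145 in Canx, counted from the RefSeq starts. The GENCODE span of Hspa5 given here begins upstream of the RefSeq start and of its element. The letters are a description of these windows, not bound sites, and Canx, which holds the element, was not called between genotypes in polyA libraries. The box CCACG alone lay in 32.8% of all promoters. In the GENCODE vM21 annotation of GRCm38, Hspa5 spans chr2:34771970-34777547, Hsp90b1 chr10:86690209-86705509, Calr chr8:84841850-84846934, Canx chr11:50293961-50325673, Pdia3 chr2:121413775-121438687 and Pdia4 chr6:47796141-47813430. The regulators Xbp1, Atf4, Atf6 and Ddit3 lie at chr11:5520659-5525893, chr15:80255184-80257541, chr1:170704674-170867771 and chr10:127290774-127296288. Other genes share 15.7% of the exon bases of Hsp90b1 and 10.9% of those of Ddit3, some on the opposite strand. The strand setting of the counting is not given in the sources used here, so the values of these 2 genes are less certain.

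In polyA libraries a difference between cKO and control was called for Hspa5, Ddit3 and Xbp1 at GV. It was called for 5 genes after 3 h of culture and for 6 at MII, not including Xbp1, and cKO was higher each time. The GV calls rested on few females, as given below. At GV, 3 of the 10 genes were called, where 7.38% of all 19242 genes tested were called, and the median log2 difference was 0.33 for the 10 genes and 0.08 for all genes. At GV plus 3 h, 5 were called beside 25.2% of all genes, with medians of 0.46 and 0.07. At MII, 6 were called beside 18.9% of all genes, with medians of 1.49 and 0.12, and the summed oocyte markers were also higher in every cKO oocyte there. None of the 10 genes was called lower in cKO in a polyA comparison between genotypes. Genes with a count per oocyte were 20149 to 21753 in cKO and 18098 to 19626 in control at GV. They were 20933 to 22147 and 18529 to 19290 after culture, and 16383 to 18025 and 13699 to 16389 at MII. The part of these values in the differences was not tested.

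**Figure D1:**
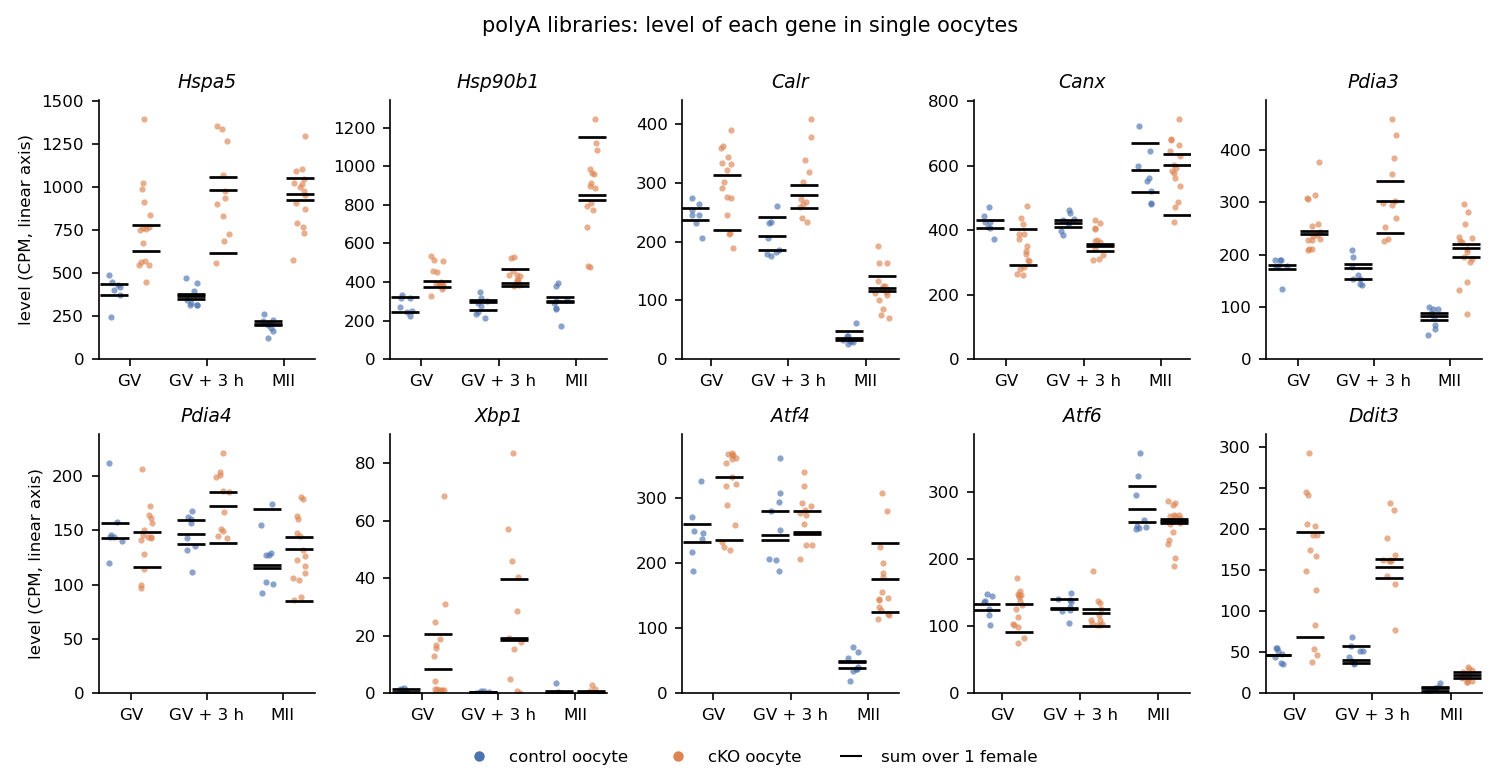
Level of each gene in CPM (linear axes from 0) in polyA libraries, by stage, for control (blue) and cKO (orange) oocytes. Points are single oocytes, and black bars are the values of counts summed over 1 female. All 15 cKO oocytes at MII lie above all 8 control oocytes for Hspa5, Hsp90b1, Calr, Atf4 and Ddit3, while Pdia4 and Atf6 overlap.

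Hspa5, the HSP70 chaperone that also holds the sensors inactive, was the most abundant of the 10 per kilobase of exon in cKO at GV, at 166.6 CPM per kb, and at GV plus 3 h, at 209.6. At GV its level was 628.7 and 780.7 CPM in cKO females V857 and V888 against 435.9 and 373.8 in control females V856 and V889, so the females did not overlap and 14 of 15 cKO oocytes lay above every control oocyte. The log2 difference was 0.80 (SE 0.20, adjusted p = 0.0266). After 3 h of culture, cKO females had 985.2, 614.3 and 1059 CPM and control females 377.0, 347.4 and 364.6. Every cKO oocyte was then above every control oocyte, and the log2 difference was 1.29 (SE 0.17, adjusted p = 0.00012). At MII the levels were 1053, 924.1 and 958.7 CPM against 224.1, 200.1 and 204.9, a log2 difference of 2.22 (SE 0.17, adjusted p = 2.09e-06), or 4.67-fold. The GV call was lost without V888 (log2 0.64, adjusted p = 0.0988), without V856 (0.91, adjusted p = 0.0804) and without V889 (0.70, adjusted p = 0.232).

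Hsp90b1, which folds a narrower set of clients including integrins and Toll-like receptors, followed with smaller differences before maturation. At GV the cKO females held 371.9 and 407.4 CPM against 320.3 and 247.1 in controls, a log2 difference of 0.46 (SE 0.18) that was not called (adjusted p = 0.129). After 3 h the cKO females held 467.6, 394.0 and 380.9 CPM against 296.4, 306.0 and 253.1 (log2 0.54, SE 0.15, adjusted p = 0.0137). That call was lost without cKO female V946 (adjusted p = 0.0693) and without control female V995 (adjusted p = 0.068). At MII the cKO females stood at 1152, 826.4 and 851.9 CPM and the controls at 297.2, 320.4 and 299.7, a log2 difference of 1.63 (SE 0.15, adjusted p = 9.24e-06). The MII gap was wider than any within either group of females.

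Calreticulin (Calr) and calnexin (Canx) are the soluble and the membrane-bound lectin of the same glycoprotein folding cycle, and they did not move alike. Calr held 219.8 and 313.1 CPM in cKO females at GV and 256.9 and 236.6 in controls, with overlapping females and no call. After 3 h of culture it held 297.4, 258.1 and 279.0 CPM in cKO against 210.2, 242.4 and 185.4 in control, without overlap of the females. The log2 difference of 0.39 (SE 0.17) was not called (adjusted p = 0.0999), but was under 3 of 13 alternatives: library totals, oocytes as replicates and only the groups compared. At MII its levels were 116.2, 141.9 and 120.8 CPM in cKO against 47.6, 35.7 and 32.0 in control (log2 1.72, SE 0.17, adjusted p = 1.91e-05). Canx was not called in any of the 3 polyA comparisons, with log2 values of -0.28 (SE 0.18) at GV, -0.27 (SE 0.15) at GV plus 3 h and -0.07 (SE 0.15) at MII. Its cKO females lay below the controls before maturation, at 291.1 to 403.9 CPM against 408.5 to 432.9, and overlapped them at MII, from 448.7 to 635.5 CPM in cKO and from 517.4 to 672.0 in control.

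The protein disulfide isomerases split in the same way. Pdia3, the oxidoreductase that works with calreticulin and calnexin on glycoproteins, held 239.3 and 245.1 CPM in cKO females at GV against 180.4 and 172.3, and all 15 cKO oocytes exceeded every control oocyte there, but the log2 difference of 0.46 (SE 0.16) was not called (adjusted p = 0.0933). It was called at GV plus 3 h, with 341.6, 242.4 and 303.2 CPM against 174.3, 181.6 and 154.0 (log2 0.80, SE 0.13, adjusted p = 0.000585). At MII the values were 196.0, 220.6 and 213.2 CPM against 74.6, 82.2 and 89.0 (log2 1.36, SE 0.13, adjusted p = 1.59e-05). Pdia4, a larger isomerase found with BiP in chaperone complexes, ranged from 85.3 to 184.6 CPM over all 16 polyA females. Its genotype differences of -0.18, 0.16 and -0.15 (SE 0.24, 0.20 and 0.20) were within the spread between females. It was not called in any of the 18 comparisons made, its largest log2 value being 0.34.

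Among the regulators, Ddit3, the transcription factor CHOP, was higher in cKO at all 3 stages. At GV it held 69.0 CPM in cKO female V857 and 197.0 in V888 against 46.5 and 47.0 in controls (log2 1.51, SE 0.41, adjusted p = 0.0375), and all 10 oocytes of V888 but 2 of 5 of V857 lay above every control oocyte. Without V888 the GV difference was 0.56 and was not called (adjusted p = 0.388), nor was it without V856 (adjusted p = 0.172) or V889 (adjusted p = 0.228). At GV plus 3 h it held 153.9, 140.6 and 164.2 CPM against 36.8, 41.2 and 57.3 (log2 1.76, SE 0.34, adjusted p = 0.00177), and at MII 19.0, 25.8 and 22.0 against 2.51, 7.36 and 6.40 (log2 2.01, SE 0.37, adjusted p = 0.00172). No cKO oocyte overlapped the controls at these later 2 stages. The second Ddit3 locus, at 0.0831 to 7.42 CPM in polyA females, had log2 differences of 1.298, 1.63 and 2.39, called at GV plus 3 h and at MII.

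Atf4, which drives Ddit3 in the integrated stress response, was called at MII alone. Its log2 differences were 0.21 (SE 0.23) at GV and 0.03 (SE 0.19) at GV plus 3 h, neither called, and 1.95 (SE 0.20, adjusted p = 1.91e-05) at MII. The MII levels were 124.7, 229.8 and 174.8 CPM in cKO females and 47.4, 49.9 and 39.5 in controls, with no overlap between oocytes. Before maturation the females of both genotypes overlapped, at 234.5 to 331.5 CPM in cKO and 231.6 to 279.8 in control. Atf6, the sensor that is cleaved in the Golgi, was not called at any stage, with log2 values of -0.19 (SE 0.17), -0.19 (SE 0.14) and -0.12 (SE 0.14). It held 92.3 to 134.1 CPM in cKO females before maturation against 125.2 to 141.0 in control, and 254.7 to 260.5 against 255.7 to 309.4 at MII.

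Xbp1, whose mRNA is spliced by IRE1 to give the active factor, was nearly absent from control oocytes. At GV the 2 control females had 28 and 14 counts in all (1.47 and 0.5263 CPM), against 835 and 690 counts in cKO (20.7 and 8.38 CPM). At GV plus 3 h the 3 control females had 0, 4 and 7 counts, with 5 of 8 oocytes at 0, against 608, 509 and 1381 counts in cKO (18.4, 19.2 and 39.7 CPM). The fitted log2 differences were 3.88 (SE 1.10, adjusted p = 0.0433) and 6.68 (SE 1.09, adjusted p = 0.000556), and both sizes rest on these few control counts. At MII no polyA female of either group exceeded 0.998 CPM, and 9 of 15 cKO and 6 of 8 control oocytes had no count.

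The Xbp1 signal was uneven between oocytes. All 5 GV oocytes of cKO female V857 lay above every control oocyte, from 15.7 to 30.9 CPM, whereas 3 of 10 oocytes of V888 did so, at 4.31, 12.9 and 68.4 CPM, and the rest stayed between 0.116 and 1.66 CPM. At GV plus 3 h, 9 of 11 cKO oocytes exceeded all controls, and within female V983 a single oocyte held 57.2 CPM beside 0.126 and 0.766 in the others. Ddit3 had the reverse order in the same 2 GV females, low in V857 and high in V888. The GV call of Xbp1 was lost without V857 (adjusted p = 0.158), without V856 (0.126), without V889 (0.316) and with DESeq2 (0.104). The files hold counts per gene, so spliced and unspliced Xbp1 were not analysed here.

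The GV calls as a whole rested on few females. With 1 female left out, the number of genes called was 2 without V857, 1 without V888, 0 without V856 and 0 without V889, and it was 0 when only the 4 GV females entered the fit. Of all genes, 1420 were called in the fit of all groups, and 675, 1825, 345, 110 and 1 in these. With all groups in the fit and library totals as the scale it was 5. At MII it was 6 with library totals, with only the MII females in the fit and without each of the 6 MII females.

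**Figure D2:**
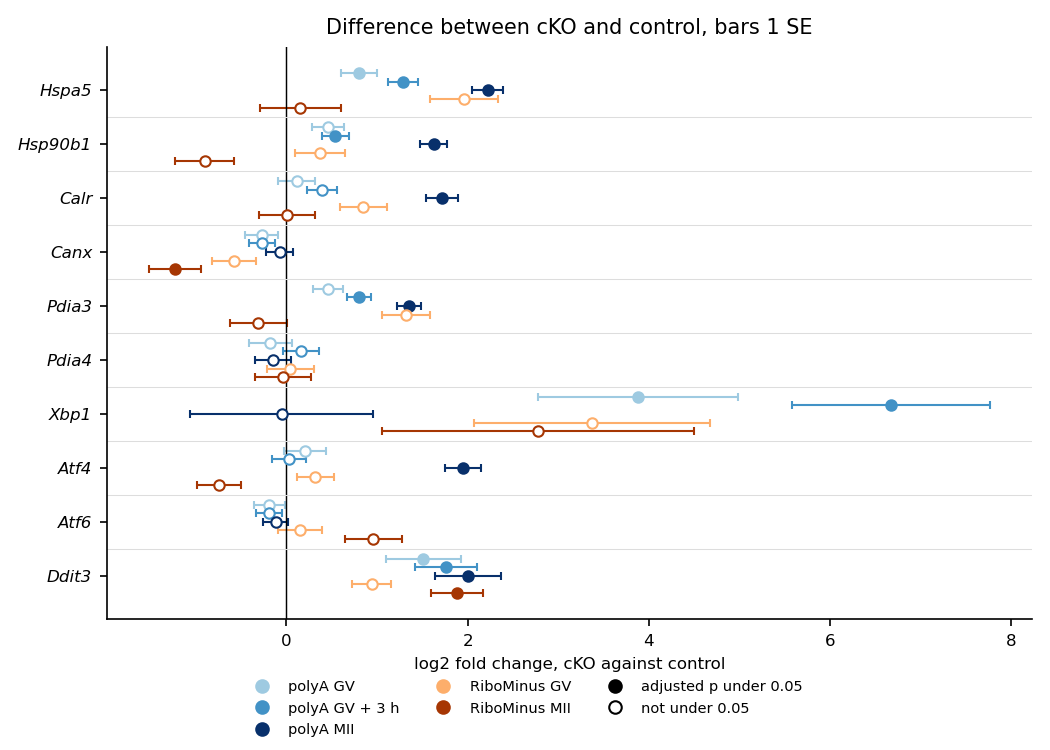
Log2 fold change of cKO against control for each gene in polyA libraries at GV, GV plus 3 h and MII (blue shades) and in RiboMinus libraries at GV and MII (orange and brown), with bars of 1 SE. Filled points have adjusted p under 0.05. For Hspa5, Hsp90b1, Calr, Pdia3 and Atf4 the polyA MII point lies at 1.36 to 2.22, and the RiboMinus MII point at -0.90 to 0.15.

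RiboMinus libraries ask whether the same differences exist when transcripts are captured whatever their tails. At GV no gene of the 10 was called, with 0.0315% of 25425 genes called in all and 3 residual degrees of freedom. An unadjusted p under 0.05 was reached by 6 of the 10 and by 3727 of all genes, and DESeq2 called 5 of the 10 and 1573 genes in all. Hspa5 held 192.6 and 388.3 CPM in cKO females V1126 and V1131 against 70.2 and 78.9 in V1132 and V1133, a log2 difference of 1.96 (SE 0.38, adjusted p = 0.103). Pdia3 held 137.3 and 227.0 CPM against 71.5 and 74.8 (log2 1.32, SE 0.26, adjusted p = 0.113), and Ddit3 72.2 and 66.8 against 34.5 and 37.9 (log2 0.94, SE 0.22, adjusted p = 0.128). Calr held 542.9 and 581.9 CPM against 281.8 and 343.1 (log2 0.85, SE 0.26). In each of these 4 genes both cKO females lay above both controls. The share of all genes that did so was not counted, so this separation is a description only. The summed oocyte markers were 6548 to 13200 CPM in cKO oocytes (median 11620) and 5681 to 10060 in control (median 7651), with overlap, and their part in these differences was not tested. Xbp1 was again uneven, at 2.02 CPM in V1126 and 16.5 in V1131 against 0.873 and 0.914.

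At MII in RiboMinus libraries the higher levels of Hspa5, Calr and Pdia3 in cKO were not seen against the single control female. Of the 10 genes, Ddit3 was called higher and Canx lower, beside 7.3% of all genes called. Ddit3 held 173.5 and 198.5 CPM in cKO females V1166 and V1167 and 50.5 in V1145 (log2 1.88, SE 0.29, adjusted p = 0.0151). Canx held 365.2 and 255.8 CPM against 729.2 (log2 -1.23, SE 0.29, adjusted p = 0.0411). Hspa5 held 208.7 and 365.3 CPM against 258.2, and Calr 548.2 and 860.2 against 702.2, with the control between the cKO females in both. Hsp90b1 held 424.8 and 255.9 CPM against 636.9 (log2 -0.90, SE 0.32, adjusted p = 0.116), and Atf4 214.2 and 251.3 against 389.6 (log2 -0.74, SE 0.24, adjusted p = 0.0949). Atf6 held 215.3 and 144.9 CPM against 92.7 (log2 0.96, SE 0.31, adjusted p = 0.094). The number of genes called was 4 without V1167 and 3 without V1166, and 1 (Ddit3) when only the MII females entered the fit, where Canx had an adjusted p of 0.119. Xbp1 held 6.42 CPM (530 counts) in V1166 and 0.324 in V1167 against 0.49 in V1145, with the control between the cKO females. Its log2 difference of 2.77 (SE 1.72) was not called, except without the filter on low counts. Counts per oocyte were 20678209 to 62675760 in cKO and 16220993 to 20447150 in control. Reads outside genes made up 8.43% to 9.56% in cKO and 11.2% to 12.0% in control, and 19957 to 23488 genes had a count in cKO and 17703 to 18004 in control, so the groups did not overlap in any of these. The granulosa and cumulus cell markers summed to 72.1 to 108.5 CPM in cKO oocytes, with 2 of 12 (Ptx3 and Tnfaip6) at 0, and to 152.1 to 168.5 in control oocytes, with 4 (also Amh and Foxl2) at 0 and Nr5a2 at 129.1 of the sum. The part of these library and marker values in the differences was not tested.

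**Figure D3:**
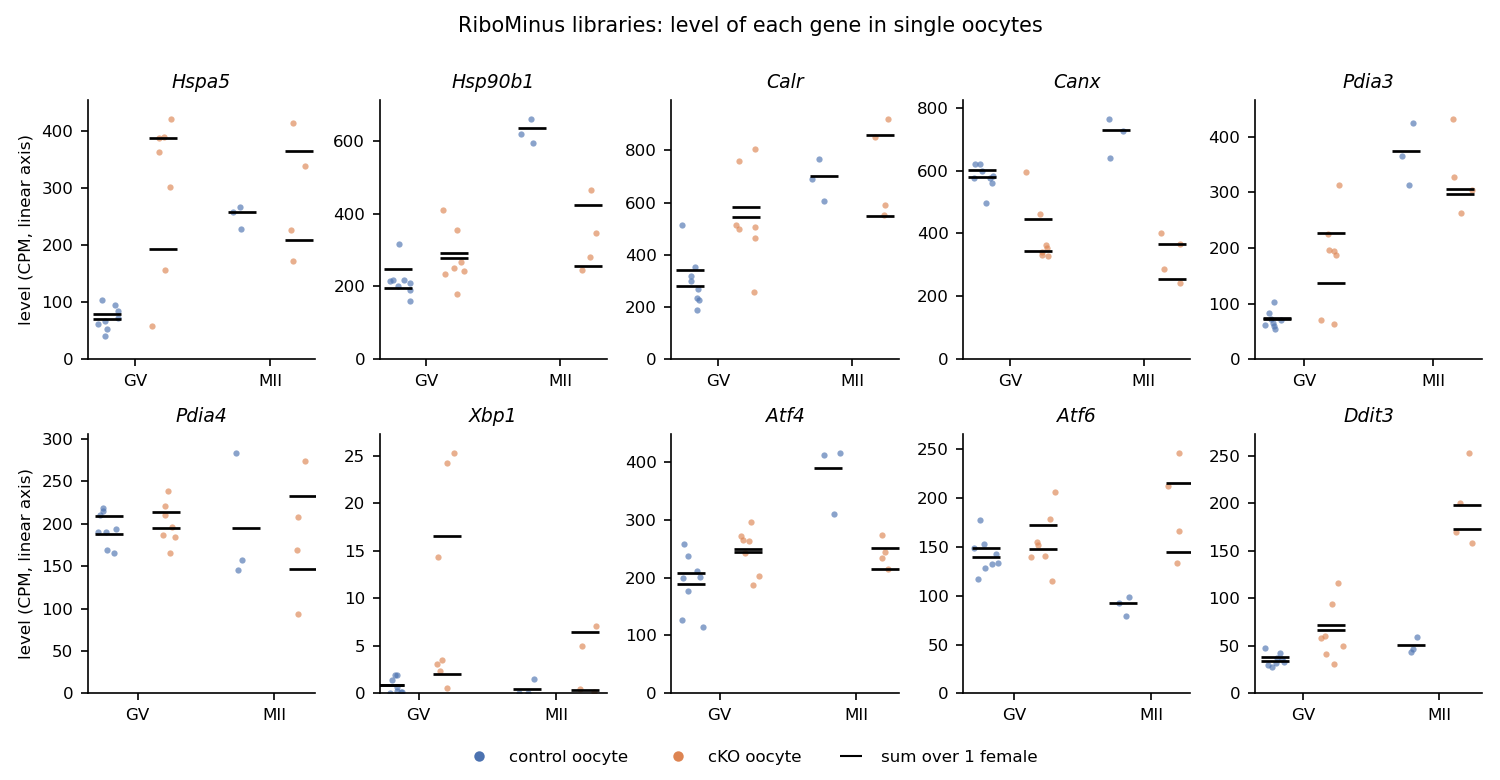
Level of each gene in CPM (linear axes from 0) in RiboMinus libraries at GV and MII, for control (blue) and cKO (orange) oocytes, with black bars for the counts summed over 1 female. At GV, 6 of 7 cKO oocytes exceed all 8 controls for Hspa5. At MII the 3 control oocytes, all of female V1145, lie above all 4 cKO oocytes for Hsp90b1, Canx and Atf4 and below all 4 for Atf6 and Ddit3.

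Whether the genotype difference itself depended on library type was tested in a fit over both types (23 females, 13 residual degrees of freedom), which was added after the values had been seen. No female gave both library types, so library type and set of females cannot be told apart in this test. At MII, 7 of the 10 genes were called, beside 9.43% of 24777 genes. The RiboMinus difference was below the polyA difference by log2 values of -2.03 (SE 0.41, adjusted p = 0.0037) for Hspa5, -2.48 (SE 0.30, adjusted p = 4.43e-05) for Hsp90b1 and -2.65 (SE 0.33, adjusted p = 4.68e-05) for Atf4. Calr (-1.67, SE 0.33), Pdia3 (-1.63, SE 0.29) and Canx (-1.12, SE 0.30) went the same way, and Atf6 the other (1.12, SE 0.30). For Ddit3, higher in cKO in both library types, the difference between them was -0.09 (SE 0.56) and was not called. The count was 6 without V1166, where Atf6 was not called (adjusted p = 0.0965), and 6 without V1167, where Canx was not (adjusted p = 0.0677). V1145 could not be left out, since it is the only control. Of all calls in this test 38.7% were higher, and 51.5% were with DESeq2 size factors, where the median of all genes moved from 0.05 to 0.21.

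At GV the same test called no gene of the 10 in edgeR and 0.00404% of all genes. An unadjusted p under 0.05 was reached by 555 of all genes and by 3 of the 10, Hspa5 (1.21, SE 0.41), Pdia3 (0.91, SE 0.29) and Calr (0.79, SE 0.32), each with the larger difference in RiboMinus. DESeq2's test was not run on this fit. Removing the filter on low counts raised the calls to 45 genes, again with 0 of the 10.

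Maturation from GV to MII was compared next within each genotype. The polyA libraries of these stages stood apart. Reads outside genes made up 9.88% to 11.2% at GV and 5.90% to 6.68% at MII in control, and 10.1% to 14.2% and 5.86% to 6.77% in cKO. Control oocytes had 18098 to 19626 genes with a count at GV and 13699 to 16389 at MII. Their median sums of granulosa and cumulus cell markers were 89.3 and 132.1 CPM. The part of these values in the changes was not tested. In control polyA libraries 7 of the 10 genes were called, 2 higher and 5 lower, beside 42.5% of all genes, with a median of -1.03 for the 10 and -0.26 for all. Ddit3 fell by 3.08 on the log2 scale (SE 0.39, adjusted p = 1.05e-05), Calr by 2.68 (SE 0.19, adjusted p = 1.95e-08), Atf4 by 2.43 (SE 0.21, adjusted p = 1.86e-07), Pdia3 by 1.10 (SE 0.14, adjusted p = 1.36e-05) and Hspa5 by 0.95 (SE 0.18, adjusted p = 0.000466). Atf6 rose by 1.12 (SE 0.16, adjusted p = 4.03e-05), from 125.2 and 133.3 CPM at GV to 255.7, 309.4 and 275.3 at MII. Canx rose by 0.49 (SE 0.17, adjusted p = 0.0255), a call lost with library totals as the scale (0.07, adjusted p = 0.777) and without V856, V889 or V896.

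In cKO polyA libraries 8 of the 10 were called, 4 higher and 4 lower, beside 44.7% of all genes, with medians of -0.17 and -0.33. Hsp90b1 rose by 1.28 (SE 0.17, adjusted p = 1.69e-05), Atf6 by 1.19 (SE 0.16, adjusted p = 2.42e-05) and Canx by 0.69 (SE 0.17, adjusted p = 0.0031), the latter lost with library totals (0.17, adjusted p = 0.404) and without V888. Xbp1 fell from 20.7 and 8.38 CPM to 0.799, 0 and 0.410 (log2 -5.16, SE 1.02, adjusted p = 0.000655). Ddit3 fell (log2 -2.58, SE 0.37, adjusted p = 3.94e-05), as did Calr (-1.077, SE 0.18, adjusted p = 0.000174) and Atf4 (-0.68, SE 0.21, adjusted p = 0.0139). Atf4 lost its call without V888 (-0.42) and without V841 (-0.48). Hspa5 rose by 0.47 (SE 0.19, adjusted p = 0.0472), but was at -0.05 (adjusted p = 0.851) with library totals as the scale, so no direction holds for it.

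The interaction of genotype and maturation, the change in cKO minus the change in control, was called for 5 of the 10 genes, beside 1.94% of all genes, all 5 positive. The log2 values were 1.42 (SE 0.26, adjusted p = 0.0118) for Hspa5, 1.17 (SE 0.23, adjusted p = 0.0175) for Hsp90b1, 1.61 (SE 0.27, adjusted p = 0.0078) for Calr, 0.90 (SE 0.21, adjusted p = 0.0381) for Pdia3 and 1.74 (SE 0.30, adjusted p = 0.00899) for Atf4. These interactions reuse the groups of both maturation comparisons and are not separate evidence. Ddit3 had 0.50 (SE 0.54) and was not called, so its fall at maturation was not shown to differ between genotypes. Of all calls 81.8% were positive, and 68.9% with library totals. The number of genes called was 0 when only the 4 groups compared entered the fit (adjusted p from 0.0581 to 0.116 for the 5 genes), 2 (Calr and Atf4) without V857, 3 without V856 and 3 without V889. Of all genes, 373 were called in the fit of all groups, and 13, 122, 178 and 61 in these. Pdia3 was not called in any of these, nor with library totals (adjusted p = 0.062).

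**Figure D4:**
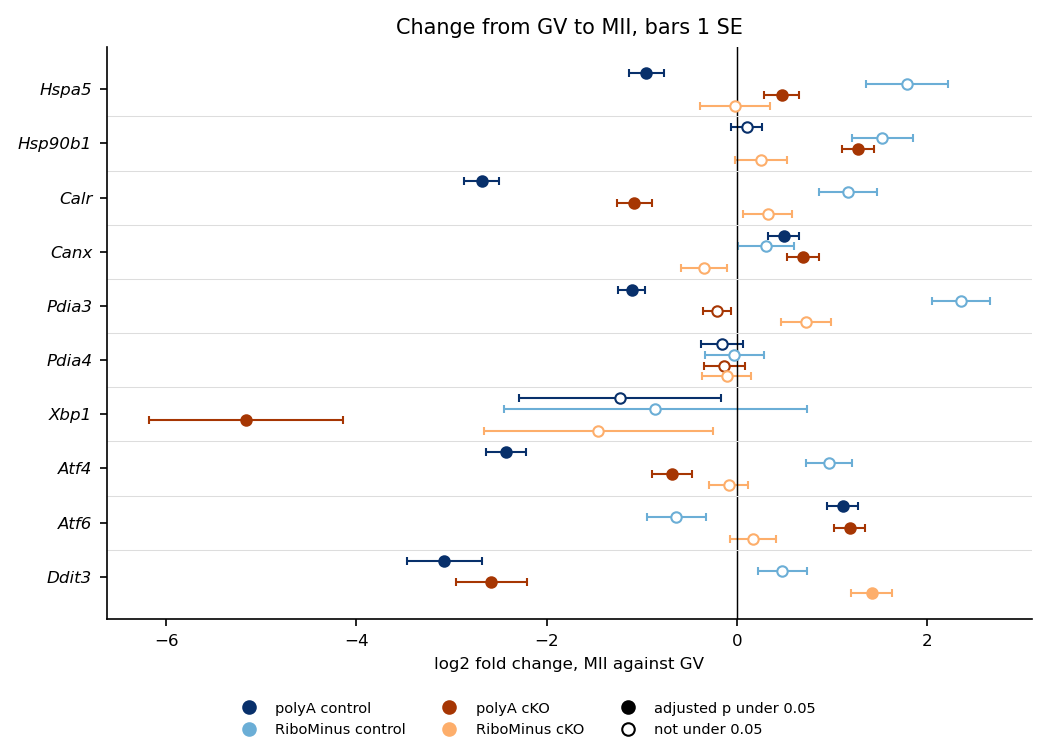
Log2 fold change of MII against GV for each gene in polyA and RiboMinus libraries of control (blue) and cKO (brown and orange) oocytes, with bars of 1 SE and filled points for adjusted p under 0.05. In controls, the polyA points of Calr, Atf4 and Ddit3 lie at -2.68, -2.43 and -3.08, and the RiboMinus points at 1.17, 0.97 and 0.48.

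The 5 genes that fell in control polyA libraries had log2 values above 0 in RiboMinus controls. Ddit3, with the largest polyA fall, had the smallest of them, 0.48 (SE 0.26). Hsp90b1, also listed below, was not called in control polyA libraries (log2 0.11, SE 0.16). The single MII control female stood above both GV controls for Hspa5 (258.2 against 70.2 and 78.9 CPM), Pdia3 (374.6 against 71.5 and 74.8), Hsp90b1 (636.9 against 194.8 and 246.8), Calr (702.2 against 281.8 and 343.1) and Atf4 (389.6 against 188.1 and 208.4). The log2 values were 1.79 (SE 0.43), 2.36 (SE 0.31), 1.53 (SE 0.32), 1.17 (SE 0.30) and 0.97 (SE 0.24). edgeR called none of the 10, beside 0.00787% of all genes. An unadjusted p under 0.05 was reached by 5 of the 10 and by 3834 of all 25425 genes, and DESeq2 called 5 of the 10 and 1545 genes in all. The smallest adjusted p of the 10 was 0.0645, for Pdia3. In cKO only Ddit3 was called, beside 2.32% of all genes: it rose from 72.2 and 66.8 CPM at GV to 173.5 and 198.5 at MII (log2 1.42, SE 0.22, adjusted p = 0.027), a call lost without V1131 (adjusted p = 0.0986) and without V1166 (adjusted p = 0.0546). Xbp1, which fell in cKO polyA libraries, went from 2.02 and 16.5 CPM at GV to 6.42 and 0.324 at MII in cKO RiboMinus libraries, with overlapping females and no call (log2 -1.46, SE 1.21). In the edgeR fit over both library types, its 2 changes in cKO were not called as different (log2 3.51, SE 1.63, adjusted p = 0.14). Without the filter on low counts they were. The interaction of genotype and maturation in RiboMinus libraries called none of the 10 and 0.0% of all genes in edgeR. There 5 of the 10 and 3611 of all genes had an unadjusted p under 0.05. Hspa5 (-1.81, SE 0.57), Pdia3 (-1.63, SE 0.41), Hsp90b1 (-1.27, SE 0.42) and Atf4 (-1.06, SE 0.32) went one way and Ddit3 (0.94, SE 0.34) the other, and DESeq2 called 1 of the 10 and 1127 genes in all.

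The test of library type against maturation in controls called 7 of the 10 genes, beside 22.8% of all genes, with a median of 1.91 for the 10 and 0.00 for all. The RiboMinus change exceeded the polyA change by 3.69 (SE 0.34, adjusted p = 9.5e-08) for Calr, 3.40 (SE 0.57, adjusted p = 0.000126) for Ddit3, 3.30 (SE 0.30, adjusted p = 1.03e-07) for Pdia3, 3.24 (SE 0.34, adjusted p = 5.24e-07) for Atf4, 2.57 (SE 0.42, adjusted p = 0.000101) for Hspa5 and 1.25 (SE 0.32, adjusted p = 0.00583) for Hsp90b1. Atf6 went the other way, by -1.92 (SE 0.32, adjusted p = 0.000122). The 7 calls held with both other scalings, with both other filters and without each of the other 7 control females of the groups compared. V1145, the only RiboMinus MII control, could not be left out, so how far the calls rest on that female was not tested. Library type and set of females cannot be told apart here either, since no female gave both types. In cKO the test called 5 of the 10, beside 20.7% of all genes. Ddit3 (3.84, SE 0.52) and Calr (1.23, SE 0.31) had the higher RiboMinus change, while Hsp90b1 (-1.19, SE 0.29), Canx (-1.22, SE 0.28) and Atf6 (-1.19, SE 0.27) had the lower one. Pdia3 (0.76, SE 0.28, adjusted p = 0.056) was called under 5 of 13 alternatives, among them both other scalings and both other filters, and Atf4 (0.42, SE 0.31) with library totals. The call of Calr was lost without V888 (adjusted p = 0.0567) and without V1167 (adjusted p = 0.052). The other 3 were not called with library totals (log2 -0.51, -0.51 and -0.49), where the median of all genes moved from 0.24 to 0.93 and the share of higher calls from 44.2% to 79.3%. In controls that share moved from 52.3% to 71.8%.

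No change of the 10 genes was detected after 3 h of culture. In control and in cKO polyA oocytes, edgeR called none of the 10 genes and 0.0% of all genes, with 425 and 373 genes at an unadjusted p under 0.05, and DESeq2 called 16 and 17 genes, 0 of the 10 among them. None of the 10 was among those with an unadjusted p under 0.05. For Hspa5 the log2 change was -0.16 (SE 0.18) in control and 0.33 (SE 0.18) in cKO, and the interaction of genotype and culture was 0.49 (SE 0.26). That interaction was called for none of the 10 genes and for 0.0% of all genes in edgeR, with 307 at an unadjusted p under 0.05 and 0 in DESeq2. The larger number of calls between genotypes after culture than before it was therefore not shown to be a difference between the stages.

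Per kilobase of exon, which allows genes to be compared, the order of the 10 genes changed at maturation. In control polyA oocytes at GV the highest mean levels were those of Atf4 (104.0 CPM per kb), Hspa5 (95.7), Canx (89.6) and Calr (85.7), and the lowest was that of Xbp1 (0.307). At MII in controls Canx (126.2), Hsp90b1 (75.8) and Pdia4 (55.9) led, and Calr had gone to 13.3. In cKO at MII Hsp90b1 (234.0) and Hspa5 (231.4) led, followed by Canx (119.8). In RiboMinus libraries Calr led in 3 of 4 groups, at 195.3 in cKO at GV, 243.8 in control at MII and 244.5 in cKO at MII, and Canx led in control at GV (125.7). The 2 library types were scaled separately, so these levels are set side by side without a test.

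Over the 16 polyA females, the genes with the profile most like that of Hspa5 among 5459 genes of at least 5 log2 CPM were Bsdc1 (Pearson r = 0.953), Tsnax (0.943) and Rps2 (0.943). For Atf4 they were Elp5 (0.98), Timm9 (0.978) and E330017A01Rik (0.978). Of the 10 genes, Calr tracked Atf4 (0.968). Pdia3 tracked Ddit3 (0.887), Hspa5 (0.885), Calr (0.867) and Atf4 (0.855) about equally. The lowest value was that of Canx with Ddit3 (-0.852), near that of Atf6 with Calr (-0.845). The points share stage and genotype, so these values are a description and carry no p.

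The other genes of endoplasmic reticulum folding and of the integrated stress response (65 genes in 7 lists, chosen with earlier results of these data known) split in both directions. In polyA libraries 5 of the 64 tested were called higher in cKO and 5 lower at GV, beside 7.38% of all genes called. At GV plus 3 h the counts were 16 and 8, beside 25.2%, and at MII 14 and 8, beside 18.9%. Their medians were 0.26, 0.30 and 0.25, beside 0.08, 0.07 and 0.12 for all genes. The N-glycan folding cycle (9 genes) had 3 higher and 0 lower at GV plus 3 h, a share near that of all genes, and 4 higher and 2 lower at MII. ER-associated degradation (10 genes), which exports misfolded proteins, had 4 higher and 1 lower after culture and 2 higher and 0 lower at MII. In the list of sensors and proteases (4 genes), 1 was higher and 2 were lower at both GV and GV plus 3 h.

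**Figure D5:**
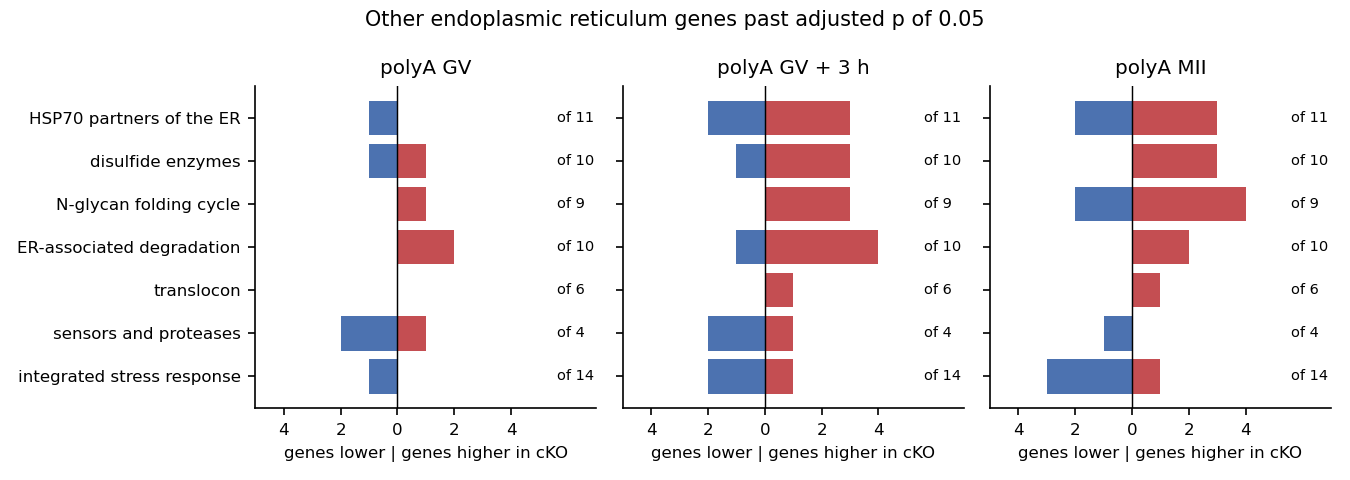
Number of genes called higher (red, right) and lower (blue, left) in cKO than in control, for 7 lists of related genes at 3 stages of the polyA libraries, with the number tested at the right of each bar. The bars run in both directions, with 16 genes higher and 8 lower in all at GV plus 3 h.

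Among the sensors, Eif2ak3 (PERK) was higher in cKO in polyA libraries at GV, at 19.0 CPM against 5.17 (log2 1.88, SE 0.38, adjusted p = 0.00949), and at GV plus 3 h, at 16.7 against 4.28 (log2 1.97, SE 0.31, adjusted p = 0.000441). It was not called at MII (log2 -0.32, SE 0.30). Ern1 (IRE1), which splices Xbp1, was lower at GV (log2 -0.56, SE 0.14, adjusted p = 0.0283) and at GV plus 3 h, at 524.2 CPM against 989.0 (log2 -0.92, SE 0.12, adjusted p = 0.000115), and was not called at MII (log2 -0.28, SE 0.12). Mbtps2, the protease that frees ATF6, was lower at GV, at 34.4 CPM against 56.7 (log2 -0.72, SE 0.19, adjusted p = 0.03), at GV plus 3 h (log2 -0.70, SE 0.15, adjusted p = 0.00375) and at MII, at 53.9 against 108.7 (log2 -1.01, SE 0.15, adjusted p = 0.000485).

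Of the BiP partners in polyA libraries, the J-domain protein Dnajb9 was not called at GV (log2 0.59, SE 0.39) and was higher in cKO at GV plus 3 h (log2 1.92, SE 0.34) and at MII (1.74, SE 0.34), at 19.5 CPM against 5.12 and at 11.2 against 3.36, and Dnajc3 was lower at GV (log2 -0.67, SE 0.13), at GV plus 3 h (-0.90, SE 0.10, 244.9 CPM against 456.7) and at MII (-0.39, SE 0.10). Syvn1, the ubiquitin ligase of ER-associated degradation, was higher at GV (log2 0.95, SE 0.27) and at GV plus 3 h (1.305, SE 0.22), at 165.1 CPM against 85.4 and 199.0 against 80.5, and was not called at MII (0.58, SE 0.22). Erp44, which retains oxidoreductases in the early secretory pathway, was higher at MII, at 307.0 CPM against 110.1 (log2 1.48, SE 0.16, adjusted p = 3.22e-05). Prkcsh, a subunit of glucosidase II, was higher at MII, at 7.87 CPM against 1.96 (log2 2.05, SE 0.34). Pdia5 was lower at GV (log2 -0.78, SE 0.22), as was the amino acid sensing kinase Eif2ak4 at GV (-0.85, SE 0.22), at GV plus 3 h (-1.17, SE 0.18) and at MII (-0.66, SE 0.18). Edem3 (-1.01, SE 0.28) and Eif2s1 (-0.66, SE 0.17), the subunit eIF2α, were lower at MII.

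During maturation in polyA libraries, 22 of the 64 genes were called higher and 18 lower in control oocytes, beside 42.5% of all genes, and 20 and 20 in cKO oocytes, beside 44.7%. The interaction with genotype was called for 3 of the 64, 2 positive and 1 negative, beside 1.94%. P4hb, the founding protein disulfide isomerase, rose in the polyA libraries of both genotypes, from 390.0 to 1038 CPM in control (log2 1.41, SE 0.17) and from 600.2 to 1868 in cKO (log2 1.64, SE 0.18). Ppp1r15a, a phosphatase subunit that reverses eIF2α phosphorylation, rose from 72.3 to 205.6 CPM in control polyA libraries (log2 1.51, SE 0.27), and Eif2ak3 from 5.17 to 16.1 (log2 1.64, SE 0.35). Sec61g of the translocon fell there from 32.5 to 4.17 CPM (log2 -2.97, SE 0.24), and Prkcsh from 16.9 to 1.96 (log2 -3.14, SE 0.37). Ppp1r15a also rose in cKO (1.19, SE 0.27), and Sec61g (-1.36, SE 0.23) and Prkcsh (-1.82, SE 0.34) also fell there, while Eif2ak3 was not called (-0.56, SE 0.33). Pdia5 rose in the polyA libraries of control (1.18, SE 0.21) and cKO (1.58, SE 0.21), and Sil1, the exchange factor of BiP, fell in both (-2.11, SE 0.16, and -1.67, SE 0.15). Erp44 rose in cKO (1.84, SE 0.19) and was not called in control (0.40, SE 0.18, adjusted p = 0.0841). Prdx4 fell in the polyA libraries of both genotypes, by log2 values of -2.75 (SE 0.81) in control and -2.92 (SE 0.76) in cKO.

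For MII against GV in RiboMinus libraries, edgeR called none of the 65 genes in controls, beside 0.00787% of all genes, where 17 of the 65 and 3834 of all 25425 genes had an unadjusted p under 0.05, and DESeq2 called 10 of the 65 and 1545 genes in all. In cKO edgeR called 1 higher and 1 lower, beside 2.32% of all genes, and DESeq2 called 12 of the 65 and 2925 genes in all. The higher gene was Clgn and the lower Syvn1, both named after their values were seen (Syvn1 log2 -1.89, SE 0.32, adjusted p = 0.0321). In controls, with 1 MII female, the RiboMinus log2 values were -1.22 (SE 0.27) for P4hb, -1.16 (SE 0.32) for Ppp1r15a, -0.87 (SE 0.79) for Eif2ak3, 1.55 (SE 0.53) for Sec61g, -0.17 (SE 0.35) for Prkcsh and 1.62 (SE 0.81) for Prdx4. The test of library type against maturation in controls was called for all 6, at -2.80 (SE 0.32, adjusted p = 1.43e-06) for P4hb, -2.83 (SE 0.46) for Ppp1r15a, -2.67 (SE 0.81) for Eif2ak3, 4.35 (SE 0.52) for Sec61g, 2.80 (SE 0.55) for Prkcsh and 4.19 (SE 1.27) for Prdx4. In cKO the RiboMinus values were -0.06 (SE 0.21) for P4hb, 0.27 (SE 0.22) for Erp44, 0.00 (SE 0.28) for Pdia5, -0.53 (SE 0.24) for Sil1, 0.31 (SE 0.29) for Prkcsh and 2.63 (SE 0.72) for Prdx4. There the test of library type was called for these 6 as well, from -1.87 (SE 0.27) for P4hb to 5.38 (SE 1.16) for Prdx4.

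In RiboMinus libraries edgeR called none of the 65 genes between genotypes at GV, where 21 of the 65 and 3727 of all genes had an unadjusted p under 0.05 and DESeq2 called 10 of the 65 and 1573 genes in all. At MII edgeR called 9 higher and 1 lower, beside 7.3% of all genes. Those at MII included P4hb (log2 2.13, SE 0.28, adjusted p = 0.0134), Ppp1r15a (1.98, SE 0.33, adjusted p = 0.0182) and Erp44 (1.82, SE 0.29, adjusted p = 0.0165), measured like the rest against the single control female.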

How the data were processed

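The authors counted reads per gene and deposited whole-number counts, not normalized, for single mouse oocytes, per the labels and the values. These were 64 polyA and 22 RiboMinus libraries of 108 samples, and 22 rRNA libraries were not used. The submitters' processing notes list cutadapt 2.5, FastQC 0.11.8, STAR 2.7.2a, SAMtools 1.9, HTSeq 0.9.1, R 3.5.1, DESeq2 1.24.0 and the mm10 build. The annotation release, strand setting and any removal of PCR duplicates are not given in the sources used here. Reads outside any gene made up 5.86% to 14.2% of a library, and the 5 summary lines of each file were left out. Of 55573 gene IDs, 55394 have a symbol.

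Counts were summed per female (16 for polyA, 7 for RiboMinus) and fitted with edgeR 4.0.16 (R 4.3.3, limma 3.58.1), all groups of a library type in 1 quasi-likelihood fit, after filterByExpr and TMM scaling, leaving 10 and 3 residual degrees of freedom. The p-values weigh a group difference against the spread between females, pooled over all groups of the fit. The single RiboMinus MII control female adds nothing to that spread. A fit over both library types was added after values had been seen. The alternatives were single oocytes as replicates, only the groups compared, DESeq2 size factors, library totals, no filter, a mean of at least 50 counts, DESeq2 1.42.0's Wald test, and leaving out each female. The scripts were tested on simulated data. Tables and figures used Python 3.11.15, numpy 2.4.6, pandas 2.3.3 and matplotlib 3.10.9.

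The 10 genes and the lists were chosen with earlier results of these data known. The text names all 10, Exosc10, up to 3 called genes per direction of the other lists with a mean of at least 3 log2 CPM in 5 polyA comparisons, and the 3 genes most correlated with Hspa5 and with Atf4. P4hb, Erp44 and Ppp1r15a in RiboMinus libraries were picked after their values were seen.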

Additional observations from a re-analysis of the deposited data

Results flagged for a closer look

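In 60 gene and group combinations of 4 to 10 oocytes, 5 held an oocyte that stood apart from the rest of its group by Dixon's test, where chance gives about 1 in 20. In RiboMinus GV controls Hsp90b1 reached 316.4 CPM in 1 oocyte of female V1133, with the next of 8 at 217.3. In polyA MII controls Calr reached 61.25 CPM in an oocyte of V836, with the next of 8 at 39.63, and Xbp1 reached 3.637 CPM in an oocyte of V853, with the next of 8 at 0.4212. In polyA GV controls 1 oocyte of V889 had the lowest Pdia3 level, 133.7 CPM beside 176.6 in the next of 7, and another oocyte of V889 the highest Pdia4 level, 211.9 CPM beside 157.3.

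The change from GV to MII in polyA libraries was called as different between cKO and control for 5 of the 10 genes. This used the interaction term of the fit, which called 1.94% of all genes, and 81.8% of all those calls were positive. None of the 5 was called when only the groups compared entered the fit. The log2 differences between the changes were 1.423 for Hspa5, 1.167 for Hsp90b1, 1.607 for Calr, 0.899 for Pdia3 and 1.744 for Atf4. The adjusted p in edgeR's quasi-likelihood test ran from 0.0078 for Calr to 0.0381 for Pdia3.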

How the results depend on the processing

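The number of the 10 genes called between polyA GV genotypes was 3, and became 6 with each oocyte as a replicate, 0 with only the groups compared, 5 with library totals and 0 to 2 with 1 female left out. For the polyA interaction of genotype and MII it was 5, and became 0 with only the groups compared and 2 to 5 with 1 female left out. In RiboMinus GV it was 0, and became 6 with oocytes as replicates, 5 without a filter, 5 with DESeq2's test and 0 to 2 with 1 female left out. In RiboMinus MII it was 2, and became 5, 1 with only the groups compared, 5 without a filter and 3 to 4 with 1 female left out. For RiboMinus MII against GV in controls it was 0, and became 6 with oocytes, 6 with only the groups compared, 4 without a filter and 5 with DESeq2. In cKO it was 1, and became 2 with oocytes, 0 with only the groups compared and 0 to 1 with 1 female left out. For the RiboMinus interaction it was 0, and became 6, 2 without a filter and 1 with DESeq2. Hspa5 from GV to MII in cKO turned to -0.047 (log2) with library totals. Of 696 alternative values of called differences, 636 kept direction and call, 59 lost the call and 1 reversed.

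Over all genes, the count at polyA GV went from 1420 to 5798 with oocytes as replicates, 2729 with DESeq2, 1 with only the groups compared, 1421 with library totals and 110 to 1825 with 1 female left out. For the polyA interaction it went from 373 to 13 with only the groups compared and 61 to 1251 with 1 left out. In RiboMinus GV it went from 8 to 4922 with oocytes, 1760 without a filter, 1573 with DESeq2 and 2 to 1184 with 1 left out. In RiboMinus MII it went from 1857 to 6620, 1703 with only the groups compared, 4421 without a filter and 2007 to 3746 with 1 left out. For RiboMinus MII against GV in controls it went from 2 to 3715 with oocytes, 5732 with only the groups compared, 1148 without a filter and 1545 with DESeq2, and in cKO from 591 to 4284, 0 with only the groups compared and 6 to 1879 with 1 left out. For the RiboMinus interaction it went from 0 to 2837, 1072 without a filter and 1127 with DESeq2. Oocytes of 1 female are not independent replicates. In RiboMinus controls the fit of only the groups compared took its spread from the GV females alone, so its counts there are not read as a result. The cause of these moves was not tested, beyond the fewer samples of the fit on the groups compared. No paired analysis was possible because each female gave oocytes of 1 genotype and 1 stage and no number is shared between the groups compared. V1145 could not be left out.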
